A study of Sus scrofa with 30 samples.

Results

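This account covers the Mid phase of a total body irradiation (TBI) time course in minipig plasma, that is the libraries drawn 10 days (10d) and 14 days (14d) after exposure, each set against plasma of the same animals before exposure. Of the 30 small RNA libraries in the series, 6 carried the label of day 10 or day 14. A library was kept when it held at least 1000 counts, which left 4 Mid libraries from minipigs 1 and 2. The Mid libraries of minipig 3 held 5 and 2 counts and were not used. The reference was the 4 pre-TBI libraries of minipigs 1 and 2, drawn 7 days (C7) and 1 day (C1) before exposure. All 411 ssc-miRNAs, the pig miRNAs of the deposited count table, were compared.

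Each Mid library came from a male Göttingen minipig of a few months of age that had received 2.2 Gy of 60Co radiation. The study's methods add that these animals were the vehicle controls of a countermeasure test, that they were given 5% dextrose under the skin on days 1 and 8, and that antibiotics were given when neutrophil counts fell low. The pre-TBI plasma came from the same animals before any of these treatments. Irradiation, dextrose and the passage of time are therefore shared by all Mid libraries and cannot be told apart, and no unirradiated animal was analysed here. Which animals had antibiotics by 10d or 14d is not given in the sources used here, so their part cannot be told apart either. The phases were drawn by the study from a principal component analysis of these same libraries, so the grouping of 10d with 14d is not independent of the values compared.

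The 8 libraries held between 24341 and 259716 counts. The smallest was C7 of minipig 1, and the Mid libraries ranged from 35762 to 103083 counts. Thinned to 24341 counts each, the libraries showed 402 ± 7.59 miRNAs before TBI and 404 ± 1.5 at Mid (mean ± SD, n = 4 each), a difference smaller than the spread (two-sided exact permutation within minipigs, p = 0.667). The smallest p that this design could give was 0.0556. The log2 totals were 16.86 ± 1.57 and 15.99 ± 0.66, given without a test because libraries were kept by their totals. Libraries of 1 animal are repeated draws, so the p values below measure the spread between 8 libraries of 2 animals and not between many animals. Reads were counted without molecular identifiers, so the precision of a count covers counting error alone.

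Plasma miRNAs are short RNAs released by blood cells, vessel walls and solid organs, carried in vesicles or bound to proteins. A miRNA pairs with messenger RNAs mainly through its seed, bases 2 to 8, so miRNAs with the same seed form a family. Total body irradiation depletes the haematopoietic progenitors of the bone marrow, and neutrophils, lymphocytes, platelets and later red cells fall in the weeks that follow, which is called the haematopoietic acute radiation syndrome. Several miRNAs are enriched in some blood cells: miR-451, miR-144 and miR-486 in red cells and their precursors, miR-142 in nearly all white cells, and miR-150 and miR-342 in lymphocytes. miR-191 is abundant in platelets and white cells, and miR-126 in platelets and endothelium.

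The seeds of the families and single miRNAs that carried the differences at Mid are shown here because they define which rows of the table share targets. They were read from the seed column of the study's network table, with all bases of the seed in capitals. Full mature sequences were not used here.
let-7a-5p: GAGGUAG
miR-16-5p: AGCAGCA
miR-181a-5p: ACAUUCA
miR-26a-5p: UCAAGUA
miR-142-5p: AUAAAGU
miR-22-3p: AGCUGCC
miR-451a: AACCGUU
miR-361-5p: UAUCAGA
The let-7 seed was shared by 8 rows (let-7a, let-7c, let-7d-5p, let-7e, let-7f, let-7g, let-7i and miR-98). The miR-16 seed was shared by 6 rows (miR-15a, miR-15b, miR-16, miR-195, miR-424-5p and miR-497). The miR-181 seed was shared by 4 rows (miR-181a, miR-181b, miR-181c and miR-181d-5p).

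The comparison of Mid with pre-TBI asked which circulating miRNAs differed between the second week after exposure and the baseline. The study's threshold, an unadjusted p under 0.05, was applied here to edgeR's quasi-likelihood test. At it 20 of 411 miRNAs passed, 5 higher and 15 lower at Mid. That is 4.87% of the miRNAs tested (1.22% higher and 3.65% lower), and 20.55 would pass by chance if no miRNA differed. No miRNA passed after Benjamini-Hochberg adjustment over all 411 (edgeR, adjusted p of 0.846 for the smallest), whereas DESeq2's Wald test passed 34 miRNAs unadjusted and 1, miR-26a, adjusted. Each value below for a single miRNA is therefore an unadjusted result of a screen whose count does not exceed the chance count. The median log2 fold change of all 411 miRNAs was 0.05, 44.8% of them lay below 0, and 26 (6.33%) differed by more than 1 on the log2 scale. The 2 minipigs moved the same way for 230 miRNAs (56.0%). Of the 20 that passed, 16 moved the same way in both, 12 lower and 4 higher.

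The lower miRNAs that passed in each of the 8 fits without 1 library were miR-26a, miR-142-5p and miR-22-3p, and the 2 groups did not overlap for any of the 3. The other 17 each passed in 2 to 6 of those 8 fits, and 9 of the 20 did not pass with scaling to the library size alone. All 4 Mid libraries lay below all 4 pre-TBI libraries for 5 of 411 miRNAs (1.22%), and above them for 3 (0.73%).
miR-26a is a widely expressed miRNA that targets cell cycle and growth regulators. Its level per library, in CPM (counts scaled to a common library total after TMM), was 1703 and 793 before TBI and 629 and 511 at 10d and 14d in minipig 1. In minipig 2 it was 1413 and 1391 before TBI and 394 and 344 at 10d and 14d. Every Mid library was thus below every pre-TBI library, with the gap narrowest in minipig 1 between C1 and 10d. The group means were 1325 ± 382 and 470 ± 127 CPM (SD, n = 4), and the log2 fold change was -1.49 with a standard error (SE) of 0.36 (edgeR, unadjusted p = 0.00223, adjusted p = 0.846). The Mid values rested on 26, 47, 17 and 41 counts.
miR-142-5p is a product of a haematopoietic locus that is active in nearly all white cells. It stood at 389, 309, 1204 and 711 CPM before TBI (C7 and C1 of minipig 1, then of minipig 2), and at 242, 250, 139 and 126 CPM at Mid (10d and 14d in the same order). Both animals were lower at Mid, and minipig 2 started higher and ended lower than minipig 1. The log2 fold change was -1.82 (SE 0.50, edgeR unadjusted p = 0.00458), made of a change of -0.47 log2 CPM in minipig 1 and -2.66 in minipig 2. The other arm, miR-142-3p, was at 195, 79.3, 213 and 211 CPM before TBI and 72.6, 174, 46.4 and 75.5 CPM at Mid, so its groups overlapped (log2 fold change -0.84, SE 0.48, unadjusted p = 0.116).
miR-22-3p is abundant in blood cells, red cells among them, and in muscle. It measured 4039, 4684, 11898 and 5398 CPM before TBI and 2274, 3372, 2063 and 2423 CPM at Mid. The log2 fold change was -1.36 (SE 0.42, edgeR unadjusted p = 0.00892), with the C7 library of minipig 2 well above the others. Its Mid values were the best covered of the group, at 89 to 310 counts per library.

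**Figure D1:**
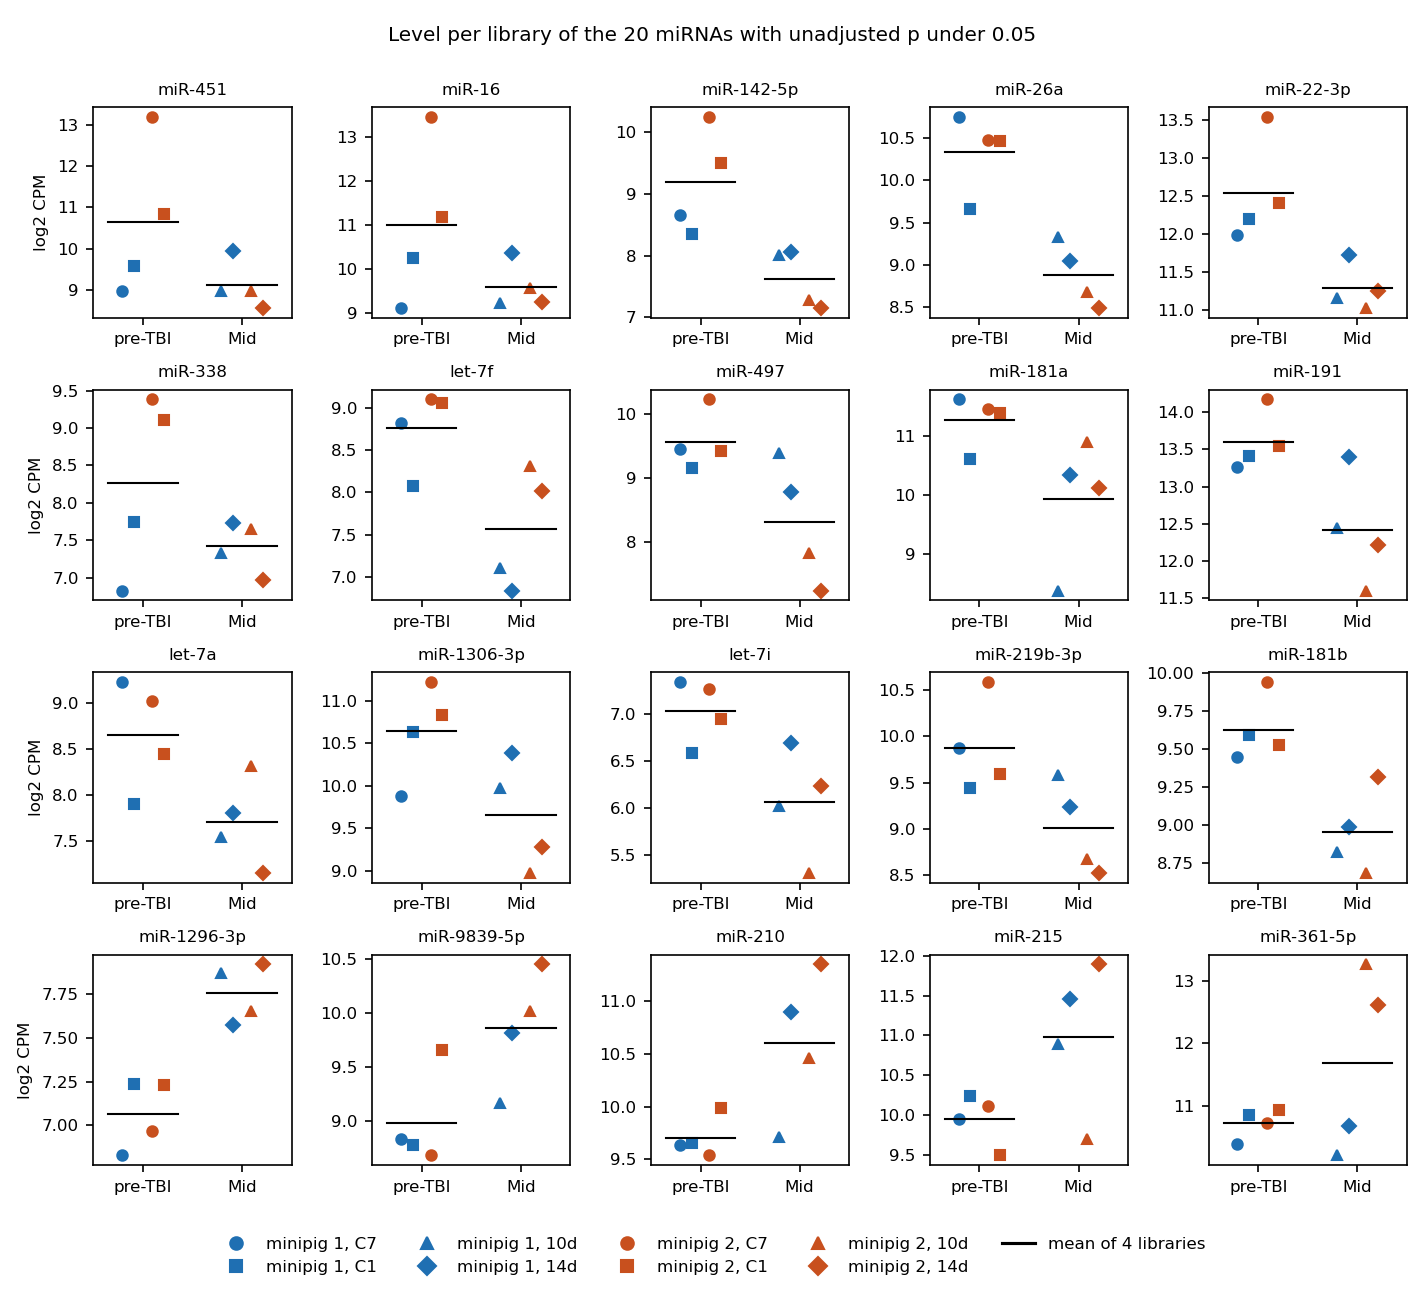
Level per library (log2 CPM, vertical axes differ between panels) of the 20 miRNAs with an unadjusted p under 0.05 in Mid against pre-TBI, ordered by log2 fold change, with colour for the minipig, marker shape for the time point and a bar for the mean of 4 libraries. The 2 groups do not overlap for miR-26a, miR-142-5p, miR-22-3p, miR-181b and miR-1296-3p, while miR-451 and miR-16 show 1 pre-TBI library of minipig 2 far above the rest.

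The erythroid miRNAs had the lowest list median, but the animals differed. The list held 3 miRNAs (miR-451, miR-144 and miR-486). All 3 were below 0 and 1 passed, where 44.8% of all 411 miRNAs lay below 0 and 3.65% passed lower. The median log2 fold change was -1.56 beside 0.05 over all 411 miRNAs. miR-451, a Dicer-independent miRNA needed for red cell maturation, measured 487 and 753 CPM before TBI and 484 and 968 CPM at 10d and 14d in minipig 1. In minipig 2 it measured 9315 and 1827 CPM before TBI and 487 and 361 CPM at 10d and 14d. The values of minipig 1 overlapped between the phases, and both Mid values of minipig 2 lay below its pre-TBI values, of which C7 was the higher.
The pooled log2 fold change of miR-451 was -2.43 (SE 0.88, edgeR unadjusted p = 0.0206). With the minipig as a block it was -1.79 (edgeR unadjusted p = 0.0817), and without the C7 library of minipig 2 it was -0.90 (edgeR unadjusted p = 0.130). The ratio of miR-451 to miR-23a, commonly read as a marker of red cell lysis in plasma, ran from -1.16 to 3.43 on the log2 scale before TBI, with the highest value in that same C7 library of minipig 2, and from -1.31 to 0.08 at Mid. The part of red cell lysis in these differences was not tested. miR-144, which is encoded within 10 kb of miR-451, measured 48.7, 95.1, 727 and 295 CPM before TBI and 169, 120, 92.7 and 67.1 CPM at Mid (log2 fold change -1.56, unadjusted p = 0.0532). miR-486, an erythroid miRNA from the ankyrin 1 locus, measured 21898, 14591, 75514 and 18965 CPM before TBI and 12389, 16000, 23694 and 10372 CPM at Mid (log2 fold change -1.07, unadjusted p = 0.110).
The summed erythroid level ran from 15439 to 85557 CPM before TBI and from 10800 to 24274 CPM at Mid, and its log2 difference of -0.85 became -0.32 without that C7 library. In plasma, fewer cells that release a miRNA and less RNA released per cell cannot be told apart.

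The test of the difference between the animals, an interaction of phase and minipig, passed 11 of 411 miRNAs unadjusted (2.68%), 9 of them with the lower change in minipig 2 (2.19%) and 2 with the higher (0.487%). After adjustment 0 passed in edgeR and in DESeq2, which also passed 11 unadjusted. Its 2 smallest p values belonged to the erythroid pair: the change in minipig 2 minus that in minipig 1 was -3.48 on the log2 scale for miR-144 (edgeR unadjusted p = 0.00503) and -3.94 for miR-451 (edgeR unadjusted p = 0.00628), with adjusted p = 0.975 for both. miR-142-5p (difference -2.39, edgeR unadjusted p = 0.00948) and miR-16 (difference -3.45, edgeR unadjusted p = 0.0140) followed in the same direction, and miR-361-5p (difference 2.34) in the other. With counts thinned to the smallest library the difference of miR-142-5p was -1.30 (edgeR unadjusted p = 0.254), while those of miR-144, miR-451 and miR-16 kept an unadjusted p under 0.05. These names were taken from the top of that test after its values were seen. Of the 20 miRNAs that passed in Mid against pre-TBI, 17 (85.0%) had the larger change in minipig 2, as did 273 of all 411 (66.4%). Taken alone, minipig 1 passed 0 miRNAs at an unadjusted p under 0.05, and minipig 2 passed 58 (41 lower and 17 higher, 9 of them lower after adjustment), with each fit resting on 2 libraries against 2.

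**Figure D2:**
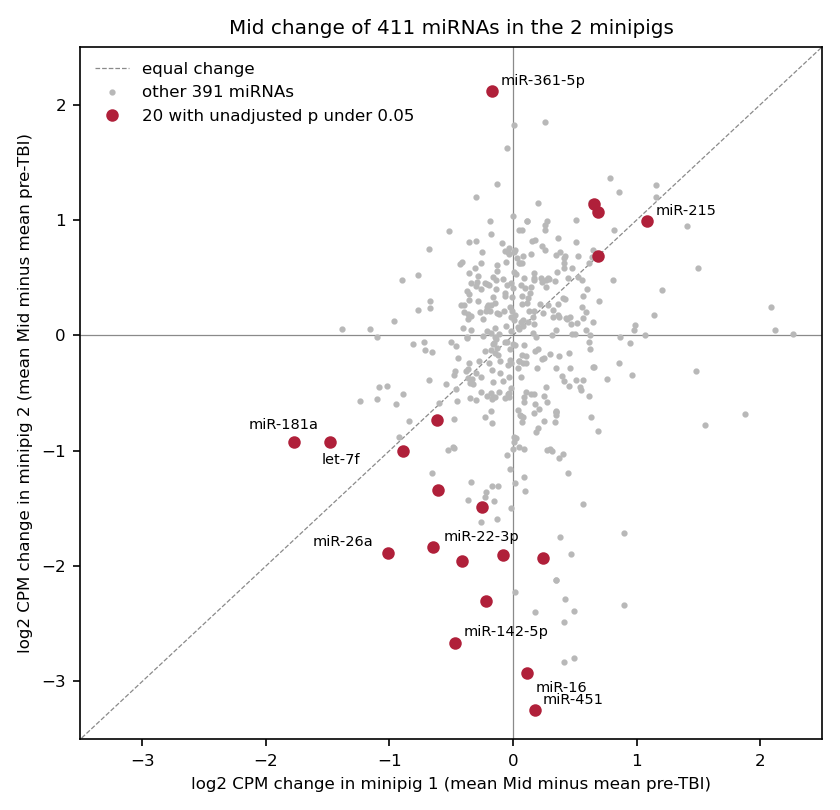
Change of each of 411 miRNAs from pre-TBI to Mid in minipig 1 (horizontal) and minipig 2 (vertical), in log2 CPM, as the mean of 2 Mid libraries minus the mean of 2 pre-TBI libraries, with the 20 miRNAs of unadjusted p under 0.05 in red and a dashed line for equal change. miR-451 (0.17 and -3.25) and miR-16 (0.11 and -2.93) lie near 0 in minipig 1 and far below 0 in minipig 2, while miR-26a (-1.02 and -1.88) and let-7f (-1.48 and -0.92) lie below 0 in both.

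Among the rows that share a seed, 3 of 8 passed for let-7, 2 of 6 for miR-16 and 2 of 4 for miR-181, all lower. These families were shown because members of them had passed, so their shares are not evidence of a family effect. The let-7 list, which adds the other arm let-7d-3p with its different seed, held 9 rows, of which 3 passed, all lower, and 9 of 9 lay below 0 with a median of -0.80. Over all 411 miRNAs, 3.65% passed lower and 44.8% lay below 0. All 9 stayed below 0 under each of the scalings tried, but with scaling to the library size alone none of the 3 passed (edgeR unadjusted p of 0.0552 for let-7f, 0.0705 for let-7a and 0.0746 for let-7i). let-7 miRNAs are markers of differentiated cells and repress growth genes. let-7f was at 438, 254, 535 and 520 CPM before TBI and at 121, 97.9, 301 and 243 CPM at Mid, lower in both animals although the groups overlapped between C1 of minipig 1 and 10d of minipig 2 (log2 fold change -1.20, SE 0.44, edgeR unadjusted p = 0.0207). let-7a (log2 fold change -1.01) and let-7i (-0.95) were the other two that passed. let-7i was the thinnest, at 23.2 to 87.0 CPM at Mid and as few as 1 count, and with the minipig as a block its edgeR p was 0.0693. The list median was -0.89 in minipig 1 and -0.70 in minipig 2. The let-7 rows differ by few bases, and how reads were shared between them is not given in the sources used here, so the split between members is uncertain. Several lie side by side: let-7a-2, let-7f-2 and let-7d, or let-7f-1 and miR-98, or let-7a-1 and miR-100, each group within 10 kb in the pig annotation (Sscrofa11.1).

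The miR-15 and miR-16 list, whose members restrain the cell cycle and BCL2, held 5 rows. 2 of 5 passed (miR-16 and miR-497, both lower), 5 of 5 lay below 0, and the median was -0.86. Over all 411 miRNAs, 3.65% passed lower and 44.8% lay below 0. miR-16 measured 535, 1197, 11326 and 2310 CPM before TBI and 581, 1294, 742 and 587 CPM at Mid. The pattern was that of miR-451, with overlapping values in minipig 1 and lower Mid values in minipig 2, whose C7 library was the high one. The log2 fold change of -2.27 (SE 0.85, edgeR unadjusted p = 0.0240) became -1.66 (edgeR unadjusted p = 0.0786) with the minipig as a block and -0.82 (edgeR unadjusted p = 0.166) without that library. miR-16 is itself abundant in red cells. miR-497, encoded within 10 kb of miR-195, measured 681, 555, 1183 and 667 CPM before TBI and 653, 424, 209 and 134 CPM at Mid (log2 fold change -1.15).

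The miR-181 list, regulators of lymphoid differentiation among other roles, held 5 rows. 2 passed (miR-181a and miR-181b, both lower), 4 of 5 lay below 0, and all 5 moved the same way in both animals, with a median of -0.26. Over all 411 miRNAs, 3.65% passed lower, 44.8% lay below 0 and 56.0% moved the same way. miR-181b was at 681, 753, 965 and 721 CPM before TBI and 436, 489, 394 and 620 CPM at Mid. Its groups did not overlap, and the log2 fold change was small (-0.68, SE 0.30, adjusted p = 0.846 and unadjusted p = 0.0453 in edgeR, and 0.0624 with the minipig as a block). miR-181a was at 3163, 1553, 2817 and 2695 CPM before TBI and 315, 1284, 1901 and 1098 CPM at Mid (log2 fold change -1.15, SE 0.50, edgeR unadjusted p = 0.0460). Its lowest value was 10d of minipig 1, and 10d of minipig 2 overlapped the pre-TBI range. With scaling to the library size alone, neither passed.

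The other lower miRNAs that passed were miR-191, miR-338, miR-219b-3p and miR-1306-3p. miR-191, abundant in platelets and white cells, measured 9781, 10898, 18485 and 11972 CPM before TBI and 5565, 10736, 3084 and 4712 CPM at Mid. The 14d library of minipig 1 remained within the pre-TBI range, and the other Mid libraries were below it (log2 fold change -1.09, SE 0.45, edgeR unadjusted p = 0.0380). It passed in 3 of the 8 fits without 1 library, and not with scaling to the library size alone (edgeR unadjusted p = 0.0725). miR-338 (log2 fold change -1.32) changed by 0.24 log2 CPM in minipig 1 and -1.93 in minipig 2, and its edgeR unadjusted p was 0.0541 with the minipig as a block. miR-1306-3p (log2 fold change -0.98) changed by -0.08 log2 CPM in minipig 1 and -1.90 in minipig 2.

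The 5 higher miRNAs were miR-215, miR-210, miR-1296-3p, miR-361-5p and miR-9839-5p. miR-215, a p53-responsive miRNA of gut, liver and kidney, measured 973, 1189, 1095 and 704 CPM before TBI and 1887, 2795, 811 and 3790 CPM at Mid. The 10d library of minipig 2 lay within the pre-TBI range and the other 3 Mid libraries lay above it (log2 fold change 1.23, SE 0.47, edgeR unadjusted p = 0.0249). miR-192, its seed relative, measured 3114, 3305, 2917 and 2370 CPM before TBI and 3170, 7451, 1762 and 6850 CPM at Mid. Both 14d libraries stood above every pre-TBI library, and the 10d libraries did not.
miR-210, the main miRNA induced by hypoxia, measured 779, 793, 727 and 1002 CPM before TBI and 823, 1893, 1391 and 2599 CPM at Mid (log2 fold change 1.02, SE 0.39, edgeR unadjusted p = 0.0258). Again the 14d value was the higher of the 2 Mid values in each animal, and 10d of minipig 1 lay within the pre-TBI range. The groups did not overlap for miR-1296-3p, at 97.3 to 135 CPM before TBI and 174 to 226 CPM at Mid, though on only 2 to 40 counts per library. Its log2 fold change was 0.71 (SE 0.29, adjusted p = 0.846 and unadjusted p = 0.0335 in edgeR, and 0.0570 with the minipig as a block).
In minipig 2, miR-361-5p measured 9830 and 6213 CPM at Mid beside 1663 and 1928 CPM before TBI. In minipig 1 it measured 1161 and 1621 CPM at Mid beside 1314 and 1823 CPM before TBI. Its log2 fold change of 1.48 had an edgeR p of 0.0828 with the minipig as a block. miR-9839-5p, a pig miRNA of unknown role, had a log2 fold change of 0.91, with C1 of minipig 2 already above the other pre-TBI libraries.

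Beyond the erythroid list, the blood cell lists gave 2 passing rows, both lower. Over all 411 miRNAs 4.87% passed, 3.65% lower, and lists of so few rows cannot be told from that share. The platelet list held 9 rows, of which 1 passed (miR-191, lower) and 6 lay above 0, with a median of 0.09. miR-126-3p, an endothelial and platelet miRNA, had a log2 fold change of 0.60 (SE 0.36) and did not pass. The lymphocyte list held 4 rows (miR-150, miR-342 and both arms of miR-155), 0 of which passed, with a median of -0.48. Below 0 lay 3 of them: miR-342 (log2 fold change -0.56, SE 0.32), miR-155-3p (-0.49) and miR-155-5p (-0.47). Only miR-150 lay above 0. miR-150, abundant in mature lymphocytes, measured 584, 610, 502 and 486 CPM before TBI and 702, 500, 464 and 713 CPM at Mid, which overlapped (log2 fold change 0.13, SE 0.29). The myeloid and pan-haematopoietic list held both arms of miR-142, and miR-223 was not analysed here. 1 of its 2 rows passed (miR-142-5p), its median was -1.33, and its median change was -0.30 log2 CPM in minipig 1 and -2.13 in minipig 2. Its summed level ran from 388 to 1417 CPM before TBI and from 185 to 424 CPM at Mid.

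Of the 35 rows in the lists for solid organs 0 passed, beside 4.87% of all miRNAs. miR-215, expressed in gut, liver and kidney and described above as higher, is in none of these lists. miR-219 was planned for the neural list, but miR-219a and miR-219b-3p were not matched to it by name. Of these, miR-219b-3p passed, lower at Mid (log2 fold change -0.91), so the 0 does not cover it. The liver list (7 rows) had a median of 0.25, with 4 rows above 0 and 3 below. Its most abundant row, miR-192, described above, had the highest log2 fold change of the list (0.72, SE 0.46). miR-122, the main hepatocyte miRNA, had the lowest (log2 fold change -0.78, edgeR unadjusted p = 0.116). It measured 1119, 705, 924 and 1277 CPM before TBI and 1161, 402, 325 and 478 CPM at Mid. The skeletal muscle and heart list (8 rows, median 0.11), the smooth muscle list (4 rows, median 0.18), the epithelial list (2 rows, median 0.19) and the neural list (14 rows, median 0.20) each had 0 passing members. In the neural list miR-218 and miR-218-5p held identical counts, as did miR-9-1 and miR-9-2, and miR-129a-5p and miR-129b. The p53-induced list, miR-34a and miR-34c, had log2 fold changes of 0.35 and -0.66 and 0 passing members. The inflammatory list (6 rows, median -0.29) also had 0, and in it miR-21 measured 438, 460, 773 and 711 CPM before TBI and 363, 533, 348 and 302 CPM at Mid (log2 fold change -0.64, unadjusted p = 0.0877). The remaining families had 0 passing members each: miR-29 (3 rows, 3 below 0, median -0.45), miR-17 to miR-92 (13 rows, median -0.11), miR-23, miR-24 and miR-27 (8 rows, median -0.05), miR-10, miR-99 and miR-125 (8 rows, median 0.03) and miR-30 (10 rows, median 0.15).

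**Figure D3:**
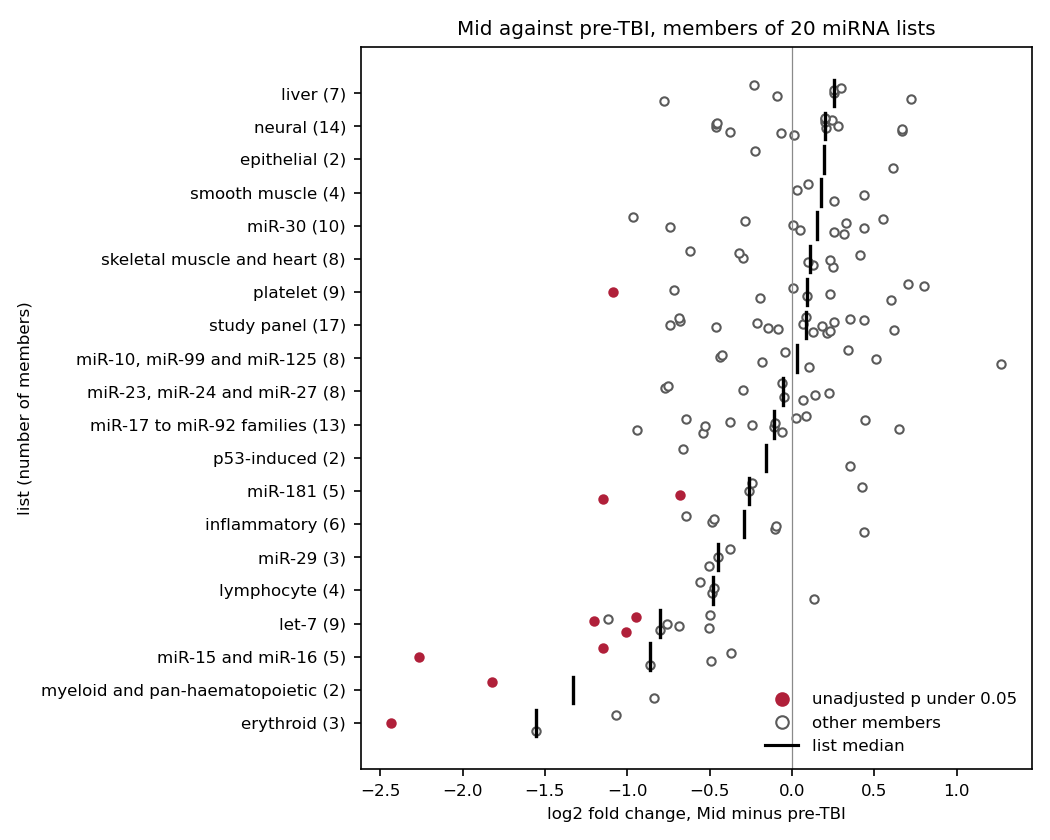
Log2 fold change, Mid minus pre-TBI, of each member of 20 miRNA lists, ordered by list median (black bar), with the number of members in brackets and filled points for members of unadjusted p under 0.05. The erythroid (-1.56), myeloid and pan-haematopoietic (-1.33), miR-15 and miR-16 (-0.86) and let-7 (-0.80) lists have the lowest medians, and the lists of solid organs lie near 0.

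The 17 miRNAs that the study put forward as its marker panel gave 0 passing members at Mid, 10 above 0 and 7 below, with a median of 0.08 and a range of -0.74 (miR-30c-1-3p) to 0.62 (miR-184). The study reported most of the panel, miR-184 among them, as lower at Mid. Each Mid change that it reported was larger in size than any of the 17 here, so its values were not recovered. The study drew on 3 minipigs and this fit on 2, and the reason for the difference was not tested. The panel was chosen on these samples, so the directions found here are not independent evidence. miR-30c-1-3p was below in all 4 Mid libraries but did not pass (unadjusted p = 0.0837).

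Among the 10 rows with the highest level before TBI, 0 passed. miR-4332 held 114306, 210793, 132343 and 77949 CPM before TBI and 114885, 120867, 98047 and 140050 CPM at Mid (log2 fold change -0.18, SE 0.56). miR-484 held 29392, 176087, 83028 and 52409 CPM before TBI and 45876, 88508, 31230 and 69493 CPM at Mid (log2 fold change -0.54, SE 0.67). Both varied as much within a group as between groups.
Of the same 10, miR-186, miR-183, miR-146a-5p and miR-490 moved together with miR-146b and miR-124a. In 6 of the 8 libraries these 6 rows held similar counts, from 1124 to 1173 in C7 of minipig 1 (highest over lowest 1.04) to 2730 to 3508 in C7 of minipig 2 (1.28). The counts were further apart in 10d of minipig 2 (247 to 371, 1.5) and in 14d of minipig 2 (149 to 358, 2.40). Together they took 28.3% of the counts in C7 and 32.1% in 10d of minipig 1, and 1.33% in 14d of minipig 2. These rows were singled out after their values were seen. miR-146a-5p and miR-146b are members of the inflammatory list and miR-124a of the neural list, so the summed levels of those lists (21400 to 115182 CPM before TBI and 3899 to 156139 CPM at Mid for the inflammatory list) moved with this pattern, whose cause was not tested. Without these rows and the row of miR-490-3p, whose counts are identical to those of miR-490, 18 of 404 miRNAs passed (6 higher and 12 lower), miR-26a, miR-142-5p and miR-22-3p among them. In log2 CPM over the 8 libraries, 8 other rows correlated with miR-186 at r over 0.97. Some of these stayed in that fit.

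The 2 time points of the phase were then taken apart. 10d against pre-TBI passed 24 miRNAs (5.84%), 13 higher (3.16%) and 11 lower (2.68%), and 14d against pre-TBI passed 21 (5.11%), 13 higher (3.16%) and 8 lower (1.95%). Both passed 0 after adjustment in edgeR, and DESeq2 passed 37 and 44 unadjusted and 0 and 4 adjusted. Scaled to the library size alone, the splits were 3 higher and 12 lower at 10d, and 8 higher and 4 lower at 14d. With the minipig as a block, 14d passed 42 miRNAs (13 higher and 29 lower). The 2 comparisons share their pre-TBI libraries and are given side by side. miR-26a had a log2 fold change of -1.36 (SE 0.48) at 10d and -1.62 (SE 0.48) at 14d, and miR-142-5p of -1.81 (SE 0.70) and -1.84 (SE 0.66), so both were low at both time points. miR-22-3p was at -1.59 (SE 0.54) at 10d and -1.17 (SE 0.53, edgeR unadjusted p = 0.0544) at 14d.

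14d was also set against 10d, with 2 libraries each. This comparison passed 37 miRNAs (9%), 15 higher (3.65%) and 22 lower (5.35%) at 14d, and 0 after adjustment in edgeR. DESeq2 passed 72 unadjusted and 5 adjusted, and with the minipig as a block 70 passed unadjusted (14 higher and 56 lower). Scaled to the library size alone, 16 were higher and 10 lower, and the median of all miRNAs moved from -0.19 to 0.08, so the split of directions depended on the scaling. The miRNAs named here were chosen after their values were seen. miR-192 was higher at 14d by 1.54 (SE 0.45, edgeR unadjusted p = 0.00786) and miR-215 by 1.29 (SE 0.53, edgeR unadjusted p = 0.0382), and both passed under the block and under library size scaling as well. Against pre-TBI, miR-215, miR-210 and miR-192 had the 3 smallest p values at 14d, with log2 fold changes of 1.73, 1.44 and 1.29 (edgeR unadjusted p of 0.00312, 0.00412 and 0.00671). At 10d the same miRNAs were at 0.45, 0.42 and -0.25. In the other direction, miR-30c-5p was lower at 14d than at 10d by -2.42 (SE 0.69) and miR-30b-5p by -2.26 (SE 0.74).

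The size of the phase effect was set against the other sources of spread. Over all 411 miRNAs, the contrast of Mid with pre-TBI took 10.4% of the variance of log2 CPM, the minipig 29.9%, their interaction 8.82%, and the 2 libraries of 1 minipig in 1 phase 50.9%. With no structure, the first 3 would each take 14.3% and the last 57.1%. The median absolute log2 difference between 2 libraries of the same animal was 0.536 across the phases (8 pairs, 0.348 to 0.822), 0.448 and 0.904 within pre-TBI, and 0.560 and 0.688 within Mid. None of the 8 pairs across the phases differed by more than the pair of pre-TBI libraries of minipig 1 (0.904), and some differed by less than any pair within a phase.

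Mid was also compared with Late, the 17d libraries of the same animals, which hold 29159 and 63441 counts. 62 of 411 miRNAs passed unadjusted (15.1%), 24 higher (5.84%) and 38 lower (9.25%) at Mid. After adjustment 13 passed (3.16%), 12 lower and 1 higher at Mid, with the identical rows of miR-9-1 and miR-9-2 both counted. Without 17d of minipig 2 the split turned, to 102 higher and 30 lower unadjusted and 67 higher and 5 lower adjusted. The 3 with the smallest p values, chosen after they were seen, were let-7e (log2 fold change -2.93, SE 0.57), miR-181b (-3.65, SE 0.74) and miR-181a (-5.75, SE 1.19), each with an edgeR adjusted p of 0.0144. miR-26a was also lower at Mid than at Late (-3.39, SE 0.78, edgeR adjusted p = 0.0214). The difference came from 1 library: miR-181a stood at 8.38, 10.38, 10.94 and 10.15 log2 CPM at Mid, at 8.86 in 17d of minipig 1 and at 16.95 in 17d of minipig 2. miR-26a likewise stood at 9.20 and 13.20 log2 CPM in those 2 Late libraries. Without 17d of minipig 2, the fold changes were -0.01 for let-7e, 0.49 for miR-181b, 1.43 for miR-181a and -0.21 for miR-26a. That fit holds 1 Late library, whose spread is assumed to be that of the other libraries.

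Over the 10 time points of each animal, the Mid libraries held the lowest value of miR-26a and of miR-142-5p in both animals. For miR-26a, 14d was the lowest of 10 time points in both animals, at 9.06 log2 CPM in minipig 1 and 8.50 in minipig 2, after 12.13 and 12.01 at 3d. In minipig 1 the 17d value (9.20) lay below that of 10d (9.36). For miR-142-5p, 10d and 14d were the 2 lowest time points in both animals. miR-22-3p had its lowest value at 10d in minipig 2 (11.06 log2 CPM), and at 17d in minipig 1 (9.71). miR-451 in minipig 1 was at 8.99 log2 CPM at both C7 and 10d, and in minipig 2 it ran from 13.23 at C7 to 8.57 at 14d and 7.65 at 17d. These levels, on a scale set over 20 libraries, are descriptions with no test. The miRNAs were chosen because they had passed in Mid against pre-TBI. Their low Mid values therefore follow in part from that choice and add no support to it.

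**Figure D4:**
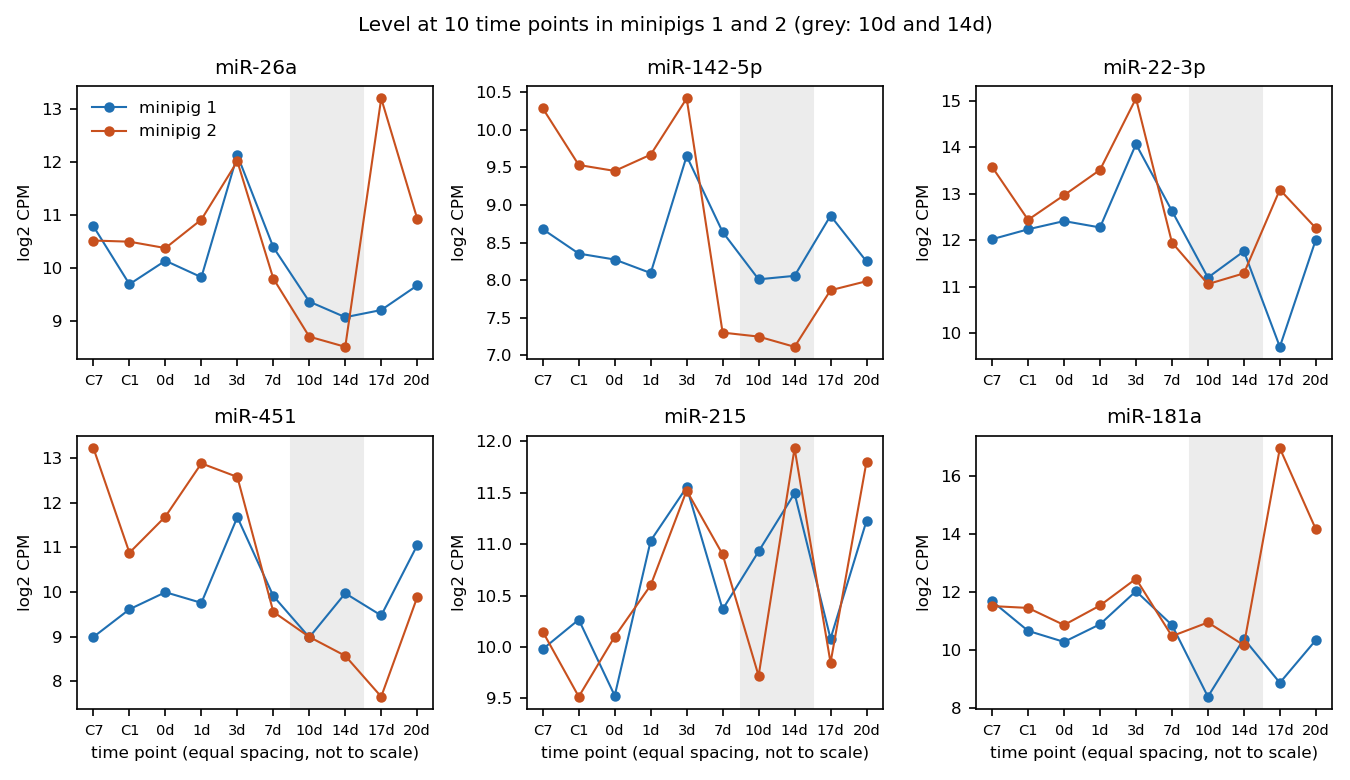
Level (log2 CPM, vertical axes differ between panels) of 6 miRNAs at 10 time points in minipigs 1 and 2, with 10d and 14d shaded and time points spaced equally. miR-26a and miR-142-5p reach their lowest values in the shaded area in both animals, miR-451 starts higher in minipig 2, and miR-181a reaches 16.95 at 17d in minipig 2. The 6 miRNAs had passed in Mid against pre-TBI, so their levels in the shaded area follow in part from that choice.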

How the data were processed

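Plasma small RNA was sequenced (TruSeq libraries, NextSeq). According to the methods, the authors trimmed reads with Cutadapt, aligned them with Bowtie (2.2.3.0 in the submitters' processing notes) to the pig genome ssc5 and to miRBase, and quantified known miRNAs with miRDeep2. The deposited values are raw counts, whole numbers per miRNA and library, for 411 miRNAs. How these rows were chosen is not given in the sources used here. Counts without molecular identifiers cover counting error only.

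Libraries with at least 1000 counts were kept. All 411 miRNAs passed the study's filter (CPM above 0.5). Groups were compared by quasi-likelihood F tests in edgeR 4.0.16 (R 4.3.3) with TMM scaling on 8 libraries, 4 per group, with no term for the animal. Fold changes use a prior count of 0.125, log2 CPM a prior count of 2, and the standard error is the fold change over the square root of F. P values were adjusted by Benjamini-Hochberg over 411 miRNAs. DESeq2 1.42.0 was an alternative. Numbers of detected miRNAs were compared by exact permutation in Python 3.11.15 (scipy 1.17.1). In data simulated for Mid against pre-TBI with 411 miRNAs, 82% of log2 changes of 2 and 96% of those of 3 passed the adjusted threshold. There 100 miRNAs were changed by each size, which eases the adjusted threshold, and libraries of 1 animal were drawn independently. These shares therefore do not show how often a few such changes would pass in the real libraries.

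Same-numbered libraries come from the same animal, which is the pairing used for the block. Deviations from the group means correlated on average at 0.246 within animals (-0.322 to 0.688 over 8 pairs) and at -0.225 between animals. Deviations within a group sum to 0, so 1 of these averages largely fixes the other, with the opposite sign.

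Named miRNAs came from the 10 most abundant before TBI, those that passed in Mid against pre-TBI, the lists and the study's panel. Of those that passed, up to 10 per direction had the smallest unadjusted p under 0.05 and moved the same way in both minipigs. The rest that passed were named too. Among them, miR-338 and miR-361-5p moved in opposite ways in the minipigs and are in no list. List members were not named strictly in order of level. miR-126-3p and miR-122 were named, while some members of their lists with higher levels were not. Others singled out for their values are marked as chosen after those values were seen. The members and lists were chosen with earlier results of these data known. A permutation test planned for summed list levels is not reported, and only the levels are given.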

Additional observations from a re-analysis of the deposited data

Results flagged for a closer look

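Among 100 groups of 4 libraries examined, the levels of 4 miRNAs held 1 library that stood apart from the other 3, where chance would give 5. Before TBI, C1 of minipig 2 was the library apart for miR-9839-5p, at 9.65 log2 CPM beside a median of 8.80, and for miR-133a-3p, at 8.17 log2 CPM beside a median of 8.64. At Mid, 10d of minipig 2 stood apart for miR-193a-5p, at 10.08 log2 CPM beside a median of 10.53, and 10d of minipig 1 for miR-30c-1-3p, at 5.34 log2 CPM beside a median of 6.59. Of these, miR-9839-5p was among the miRNAs higher at Mid with an unadjusted p under 0.05.

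miR-331-3p of the study's panel moved in opposite directions in the 2 animals, by -0.23 log2 CPM in minipig 1 and 0.45 in minipig 2. In edgeR the interaction of phase and minipig had an adjusted p of 0.998, so a difference between the animals was not shown.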

How the results depend on the processing

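The count of 20 miRNAs in Mid against pre-TBI stayed within 1.5 times under most settings. It was 12 with library size scaling, 34 with DESeq2 (1 after adjustment), 5 with C1 as the only baseline, 10 with counts thinned to the smallest library, 0 in minipig 1 alone and 58 in minipig 2 alone (9 after adjustment). Without 1 library it ran from 3 (without C7 of minipig 2) to 31 (without 10d of minipig 1), and it was 5 without 14d of minipig 2. The replicate block (the minipig, a paired design) gave 18, and 11 with thinned counts as well, and 13 of the 20 kept p under 0.05 under it. The block gave 42 at 14d and 70 for 14d against 10d. It changed no other count by over 1.5 times. Library size scaling gave 15 at 10d and 12 at 14d. DESeq2 gave 37 at 10d, 44 at 14d (4 adjusted), 72 for 14d against 10d (5 adjusted) and 22 adjusted in Mid against Late. Mid against Late passed 47 unadjusted and 21 adjusted without 17d of minipig 1, and 132 unadjusted (102 higher) and 72 adjusted (67 higher) without 17d of minipig 2, beside 24 of 62 and 1 of 13 higher with both.

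miR-26a, miR-142-5p and miR-22-3p kept an unadjusted p under 0.05 in 24 of 25 alternatives. In minipig 1 alone, miR-451 (0.25), miR-16 (0.12), miR-338 (0.10) and miR-361-5p (-0.14) changed sign. Without 17d of minipig 2, miR-181a (1.43) and miR-181b (0.49) did so in Mid against Late, beside -6.72 and -4.60 without 17d of minipig 1. The summed erythroid level was -0.32 without C7 of minipig 2. The fit without the 7 rows of similar counts, the thinned block, the 17d and list alternatives and DESeq2 beyond Mid against pre-TBI were added after seeing the data. With 24341 counts in the smallest library, miRNAs of low level rest on few counts: 8 of the 20 had fewer than 10 counts in a library.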
